A study of Mus musculus with 6 samples.

Results

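The mTORC1, autophagy and lysosome genes examined here are 32 mouse genes chosen by symbol for their known roles. All 32 were found in a deposited expression table of 54600 rows, with 1 row each. They comprise 5 genes of the mTORC1 kinase complex and the MiT/TFE transcription factors, 9 of the autophagy machinery, 7 of the lysosomal membrane and its acidification, and 11 lysosomal hydrolases and other lumenal proteins. The study sequenced liver RNA after 16 weeks of high-fat feeding, a diet that all 6 libraries share. Of these, 3 are labelled wild type and 3 hepatocyte-specific HIF-2α knockout, and WT and KO below stand for these labels. The driver of the deletion and the strain, age and sex of the mice are not given in the sources used here. Nothing in the labels says that each library came from a separate animal, so a p-value here speaks only of the spread among these 6 libraries, which may be technical. Values are TPM, which allow for gene length and add up to 1 fixed total per library, so that read totals are lost and the depth is unknown.

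mTORC1 is a protein kinase complex, active on the lysosomal surface when amino acids and growth factors are plentiful, that promotes growth and restrains autophagy. Autophagy encloses cytoplasm, lipid droplets or organelles in a double membrane and delivers them to the lysosome, where acid hydrolases break them down. The transcription factors TFEB, TFE3 and MITF are held in the cytoplasm by mTORC1 and, once released, bind E-box sequences near lysosomal and autophagy genes. In hepatocytes this system supplies amino acids during fasting and takes part in the turnover of lipid droplets.

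Those E-boxes can be read in the promoters. The genes were chosen for roles near which these factors are known to bind E-boxes. The shares below are therefore not independent of that choice and are given as a description. RefSeq promoter windows on GRCm38.p6, each from 250 bases before to 50 after a start site, matched 27 of the 32 genes, in 35 windows. The 6-letter E-box CACGTG, which reads the same on both strands, was present for 10 of the 27 genes (37.0%), against 12.0% of the 8598 tested genes with a window and 8.09% of all 27025 genes in the promoter table. The longer form TCACGTG on either strand, which contains the E-box, was present for 8 of the 27 (29.6%), against 7.15% and 4.29%. In the lines below 1 stretch is given for each of the 10 genes, 5′ to 3′ on the gene's strand, with the E-box in capitals. The stretches of Cln3 and Gaa are shown because these genes had the smallest p below, and the other 8 were added after their values were seen.
Lamp1: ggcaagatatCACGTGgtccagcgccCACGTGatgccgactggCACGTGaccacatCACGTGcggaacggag
Mcoln1: tcgcgcttgtCACGTGttcagttcag
Cln3: cgggtactgtCACGTGacccccaacc
Atp6v1a: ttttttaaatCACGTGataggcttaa
Ctsa: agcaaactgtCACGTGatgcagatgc
Ctsd: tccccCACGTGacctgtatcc
Ctsl: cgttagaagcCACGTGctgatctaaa
Gaa: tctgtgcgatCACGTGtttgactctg
Atg7: tattggtggtCACGTGtgcagtaagt
Atg5: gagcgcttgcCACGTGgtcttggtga

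The Lamp1 stretch (GRCm38.p6 chr8:13159090-13159161, plus strand) holds 4 E-boxes, centred 58, 42, 25 and 12 bases before the start site. Mcoln1, Cln3, Ctsa and Ctsd each held 2 in 1 window, as did few of the tested genes: 1.28% had 2 or more. The Mcoln1 stretch lies at chr8:3500438-3500463 on the plus strand, and its neighbour is centred 42 bases before the start. Cln3 has 2 windows: the one at the 5′ end of the gene held no E-box, and the one at an internal start held the stretch shown (chr7:126583342-126583367, minus strand, centred 118 bases before that start) and another E-box centred 146 bases before it. The Ctsa stretch (chr2:164833751-164833776, plus strand) and the Atg5 stretch (chr10:44268315-44268340, plus strand) lie next to the start, centred 9 and 11 bases before it. Those of Atp6v1a (chr16:44139375-44139400, minus strand), Atg7 (chr6:114670954-114670979, plus strand) and Gaa (chr11:119267813-119267838, plus strand) are centred 128, 129 and 137 bases before it. Those of Ctsl (chr13:64370741-64370766, minus strand) and Ctsd (chr7:142388057-142388077, minus strand) lie farthest out, 233 and 242 bases before the start, and the second Ctsd E-box is 95 bases before it. Like that of Cln3, the stretches of Atg7, Ctsa, Atp6v1a and Ctsl lie inside the annotated gene, before an internal start. The annotated 5′ ends are at chr6:114643097 for Atg7, chr2:164832873 for Ctsa, chr16:44139705 for Atp6v1a and chr13:64370890 for Ctsl. For Ctsd, Mcoln1 and Gaa the start also lies inside the annotated gene, although the stretch shown begins before the 5′ end. Their 5′ ends are at chr7:142388038, chr8:3500457 and chr11:119267887, so the distances given for them are not from the 5′ end. By role, E-boxes were found for 4 of 5 genes of the lysosomal membrane, 4 of 10 of the lumen, 2 of 7 of the autophagy machinery and 0 of 5 of mTORC1 and the MiT/TFE factors. Among 146 further genes of the pathway with a window, 34 (23.3%) had one, most often those of lysosomal sorting (8 of 16). A match is a description of these letters in this window, and no binding was measured.

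In the liver libraries the 32 genes spanned a wide range of levels. By mean TPM over the 6 libraries, 8 genes were above 100, 16 between 10 and 100, and 8 below 10. The 2 lysosome-associated membrane proteins headed the order, Lamp2 at 374 and Lamp1 at 359 TPM, which did not differ beyond their spread. The cysteine protease gene Ctsl followed at 290 and Gabarapl1, a ubiquitin-like protein of the autophagosome membrane, at 243. The transcription factor genes lay near the bottom: Tfe3 was at 7.02, Tfeb at 2.71 and Mitf at 1.11 TPM. Just above Mitf was Atp6v0d2, an alternative subunit of the V-ATPase proton pump known from macrophages and osteoclasts, at 1.13 TPM. Hepatocyte markers were abundant in every library, with a summed level of 8 genes between 46400 and 69800 TPM.

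**Figure D1:**
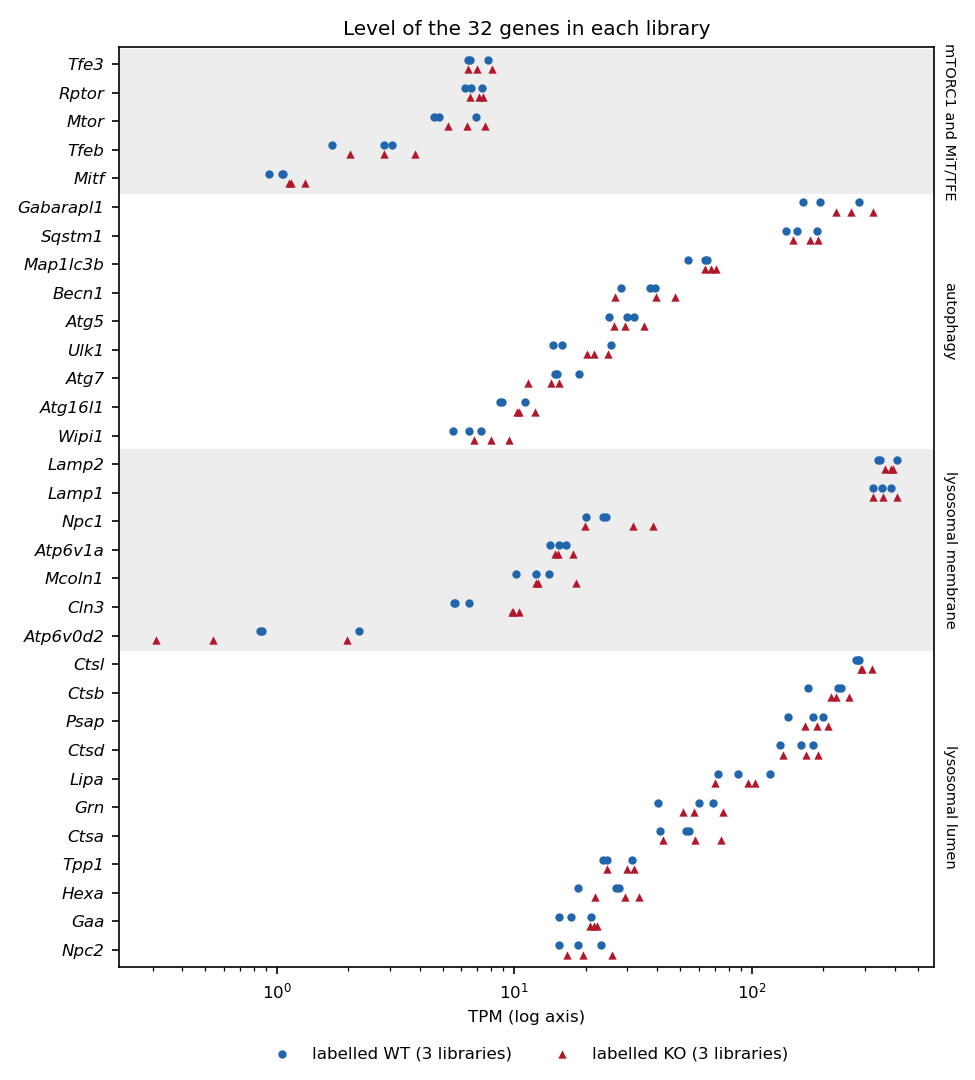
TPM of the 32 genes in each library on a log axis, with circles for the 3 libraries labelled WT and triangles for the 3 labelled KO, grouped by role. Only Cln3, Mitf and Ctsl have all 3 KO points to the right of all 3 WT points; the levels run from Lamp2 and Lamp1 down to Atp6v0d2 and Mitf.

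Before the comparison of the labels, the targeted gene has to be stated. Epas1, which encodes HIF-2α, was no lower in KO than in WT: WT held 23.8, 26 and 21.0 TPM, and KO 26.6, 35.1 and 29.4 TPM. All KO values lay above all WT values, as for 8.23% of all tested genes, with a log2 difference of +0.34 (limma, unadjusted p = 0.050, adjusted p = 0.993). After the libraries were divided by their median ratios the groups overlapped, with +0.24 (limma, unadjusted p = 0.0964). The deletion is therefore not seen in this gene's level, and every direction below is between libraries by label. Exon-level values, which could show a deleted exon, were not analysed here. WT replicate 3 stood apart from the other libraries: its median-ratio factor, the typical level of its genes against the 6 libraries, was 0.8788, against 0.98 to 1.082 in the other 5. Mitochondrially encoded genes took 16.2% to 24.5% of TPM. Of the 32 genes, 14 share exonic bases with another annotated gene, which matters where that gene is expressed. The values cover all cells of the liver, and fewer cells of a type cannot be told apart from less RNA per cell.

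None of the 31 tested genes was called different between the labels (limma on log2(TPM + 1), Benjamini-Hochberg adjusted p below 0.05), and their adjusted p lay between 0.993 and 0.994. Over all 11440 genes tested, 0.0% were called higher and 0.00874% lower. At an unadjusted p below 0.05 there was 1 of the 31, Cln3, higher in KO, against 2.76% of all tested genes higher and 0.385% lower. Atp6v0d2 did not reach 1 TPM in 3 libraries and was not tested. The log2 difference, KO minus WT, was above 0 for 29 of the 31 genes and its median was +0.13. Differences above 0 were also common in the background, at 74.5% of all tested genes, with a median of +0.09. After the libraries were divided by their median ratios, which moved the median of all genes by about that amount to -0.0014, 19 of the 31 were above 0 with a median of +0.03, against 49.7% of all tested genes. Cln3 was then again the 1 gene with an unadjusted p below 0.05, against 1.31% of tested genes higher and 1.25% lower. The 95% intervals of all 31 genes lay within 1 log2(TPM + 1) unit of 0, which for a low gene such as Cln3 is not the same as a 2-fold change in TPM.

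**Figure D2:**
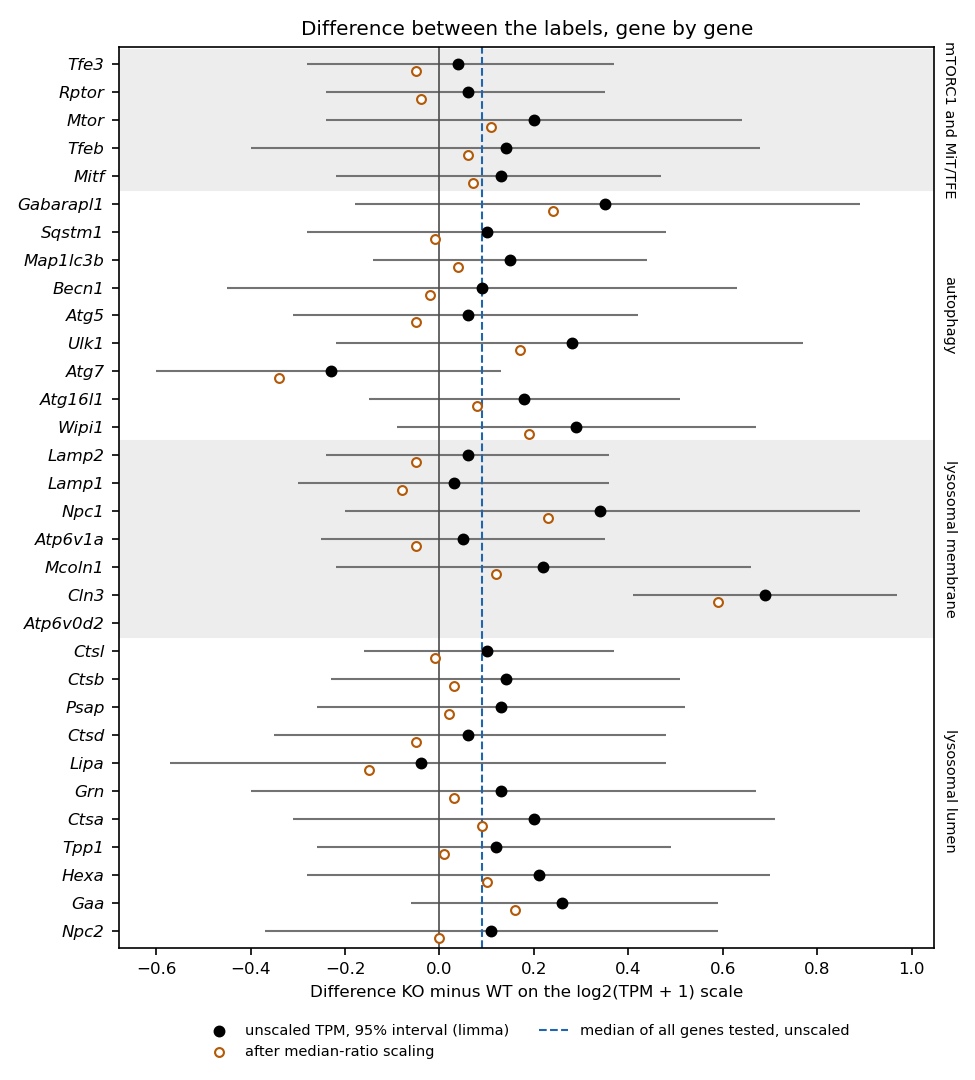
Difference between the labels for the 31 tested genes on the log2(TPM + 1) scale, KO minus WT, grouped by role: filled points with 95% limma intervals for unscaled TPM, open points after median-ratio scaling, and a dashed line at the median of all genes tested (+0.09). The interval of Cln3 (0.41 to 0.97) is the one that does not reach 0, and most open points lie close to 0.

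Cln3 stood apart from the other genes. It encodes a lysosomal membrane protein whose loss causes a juvenile form of neuronal ceroid lipofuscinosis. Cln3 (ENSMUSG00000030720; mm10 chromosome 7, 126571207 to 126585817, minus strand) was at 5.61, 6.46 and 5.58 TPM in WT and at 9.88, 9.81 and 10.5 TPM in KO. All 3 KO libraries lay above all 3 WT libraries, with a spread within each label that was small beside the gap. Mean TPM was 5.88 ± 0.496 in WT and 10.1 ± 0.405 in KO (SD, n = 3 each), for a log2 difference of +0.69 with a standard error of 0.12. Its unadjusted limma p of 0.000589 ranked 4 among all genes tested, and the limma adjusted p was 0.993, so it was not called. Groups without overlap were found for 3 of the 32 genes with KO above WT (Cln3, Mitf and Ctsl) and for 0 with KO below, against 8.23% and 0.857% of all genes tested.

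The difference in Cln3 kept its direction after the libraries were scaled, though it became smaller. After median-ratio scaling it was +0.59 (limma, unadjusted p = 0.00186) and the groups still did not overlap, as for 3.44% of tested genes in that direction and 3.53% in the other. It was then the 1 gene of the 32 without overlap. Set against the geometric mean of the other 30 tested genes of the same library, Cln3 was at 0.159, 0.202 and 0.200 in WT and at 0.267, 0.275 and 0.327 in KO. These ratios do not depend on how a library is scaled and also did not overlap. They were chosen after the values were seen, for a gene already picked for its separation, so they add no independent support. The share of all genes whose ratio would not overlap is not given here. On the opposite strand, 442 exonic bases of Cln3 are shared with Apobr, the apolipoprotein B receptor gene, and the sources used here do not say whether reads were counted by strand. Apobr was at 0.713, 0.808 and 1.35 TPM in WT and at 0.683, 1.21 and 0.500 in KO, which overlap.

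**Figure D3:**
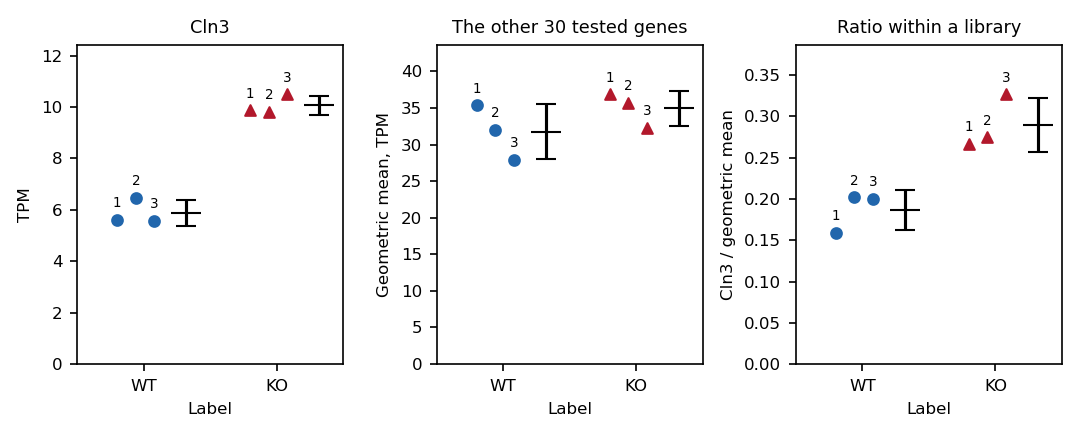
Cln3 in TPM (left), the geometric mean TPM of the other 30 tested genes (middle) and the ratio of both within each library (right), each axis starting at 0, with numbered points for the libraries and mean ± SD beside them. Cln3 and the ratio separate the labels, whereas the geometric means of the other genes (27.9 to 35.4 in WT, 32.3 to 36.9 in KO) overlap.

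The mTORC1 and MiT/TFE genes had low levels and small differences. Mtor, the kinase itself, was at 6.91, 4.61 and 4.84 TPM in WT and at 6.36, 7.56 and 5.24 in KO. Its scaffold Rptor was at 7.33, 6.57 and 6.19 TPM in WT and at 7.12, 6.49 and 7.38 in KO. Both overlapped between the labels, and their log2 differences were +0.20 ± 0.19 and +0.06 ± 0.13 (limma standard error). Tfe3, the most abundant of the 3 factors, was at 7.74, 6.54 and 6.40 TPM in WT and at 8.05, 6.41 and 6.96 in KO. Tfeb varied most of the 5 within a label, from 1.71 to 3.05 TPM in WT and from 2.04 to 3.81 in KO. The lowest of the 3, Mitf, was at 0.929, 1.06 and 1.05 TPM in WT and at 1.13, 1.15 and 1.32 in KO. The Mitf groups did not overlap, but the log2 difference was +0.13 ± 0.15 (limma standard error; unadjusted p = 0.414), and after median-ratio scaling they did overlap. The median difference of the 5 genes was +0.13, and +0.06 after that scaling.

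Among autophagy genes, the most abundant were Gabarapl1 and Sqstm1. Gabarapl1 was at 284, 165 and 195 TPM in WT and at 324, 226 and 263 in KO. The labels overlapped, yet the KO library was higher in each of the 3 same-numbered pairs. Its log2 difference was +0.35 ± 0.23 (limma standard error, unadjusted p = 0.162). With the replicate number as a block, which treats same-numbered libraries as pairs, the unadjusted limma p was 0.00959 and the adjusted p 0.724. That block gave 2 of the 31 genes an unadjusted p below 0.05, Cln3 and Gabarapl1, both higher in KO, against 5.26% of tested genes higher and 0.918% lower, and called none. Across alternatives its adjusted limma p ran from 0.7239 to 0.9999. The cargo receptor gene Sqstm1, which encodes p62, was at 189, 156 and 139 TPM in WT and at 191, 150 and 176 in KO, and overlapped.

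Ulk1, the kinase that starts autophagosome formation and a direct mTORC1 substrate, was at 25.5, 14.6 and 15.9 TPM in WT and at 24.8, 21.6 and 20.2 in KO. The first WT library stood as high as the KO libraries, and without it the log2 difference was +0.51 in place of +0.28. That library was picked from the values of Ulk1 itself. Without it the median of all genes tested also rose, from +0.09 to +0.14. Wipi1, a phosphoinositide-binding protein of the forming autophagosome, was at 7.25, 5.52 and 6.43 TPM in WT and at 6.76, 7.96 and 9.54 in KO, which overlap. Atg7, the E1-like enzyme of the conjugation of LC3 and ATG12, had the most negative difference of the 31 tested genes. It was at 18.7, 14.8 and 15.2 TPM in WT and at 14.3, 11.4 and 15.4 in KO, and the labels overlapped. Its log2 difference was -0.23 ± 0.16 (limma standard error, unadjusted p = 0.176), and -0.34 after median-ratio scaling. Map1lc3b, which encodes LC3B, lay between 54.2 and 71.1 TPM in all 6 libraries. Becn1, a subunit of the class III PI3-kinase complex, and the conjugation genes Atg5 and Atg16l1 had log2 differences of +0.09, +0.06 and +0.18. In the 9 autophagy genes the median difference was +0.15, and +0.04 after median-ratio scaling.

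The major lysosomal membrane proteins had small differences between the labels. Lamp1 was at 386, 355 and 325 TPM in WT and at 409, 356 and 325 in KO. Lamp2 was at 411, 348 and 341 TPM in WT and at 392, 365 and 387 in KO. Their log2 differences of +0.03 and +0.06 turned to -0.08 and -0.05 after median-ratio scaling. Their 95% limma intervals ran from -0.30 to +0.36 and from -0.24 to +0.36.

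Npc1, which moves cholesterol out of the lysosome together with the lumenal protein encoded by Npc2, was at 23.7, 24.3 and 20.1 TPM in WT and at 31.6, 38.3 and 19.9 in KO. KO replicates 1 and 2 lay above all WT libraries, and KO replicate 3 below all of them. The log2 difference was +0.34 ± 0.23 (limma standard error, unadjusted p = 0.182), and +0.60 without KO replicate 3. That library was picked from the values of Npc1 itself, and without it the median of all genes tested was +0.13, against +0.09. Npc1 shares 511 exonic bases with Rmc1 on the opposite strand, which was between 7.98 and 11.9 TPM. Mcoln1, the calcium-permeable channel TRPML1, was at 14, 12.4 and 10.2 TPM in WT and at 12.4, 18.3 and 12.6 in KO. Atp6v1a, the catalytic subunit of the V-ATPase, lay between 14.1 and 17.7 TPM in all 6 libraries.

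Atp6v0d2 was at 0.848, 2.23 and 0.868 TPM in WT and at 0.539, 1.97 and 0.311 in KO. It was highest in replicate 2 of both labels and lower in the KO library of each same-numbered pair. Its coefficients of variation, 60.2% in WT and 95.7% in KO, were the largest of the 32 genes.

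Lysosomal hydrolases and lumenal proteins were among the most abundant members, and 10 of 11 had a log2 difference above 0, or 8 after median-ratio scaling. The median was +0.13, and +0.02 after that scaling. Ctsl was at 280, 284 and 275 TPM in WT and at 292, 321 and 289 in KO. The groups did not overlap, since the WT values were tight (coefficient of variation 1.66%). The log2 difference was +0.10 ± 0.11 (limma standard error, unadjusted p = 0.397), and it turned to -0.01 with overlapping groups after median-ratio scaling. Ctsb, another cysteine protease, was at 230, 237 and 172 TPM in WT and at 256, 227 and 216 in KO, with overlap. Part of Ctsb, 774 exonic bases, is shared with the squalene synthase gene Fdft1 on the opposite strand, which was between 28.9 and 50.6 TPM.

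Gaa, the acid glucosidase that degrades glycogen in lysosomes, was at 21.0, 17.4 and 15.5 TPM in WT and at 20.9, 21.6 and 22.4 in KO. It had the smallest unadjusted limma p after Cln3, 0.0975, with a log2 difference of +0.26 ± 0.14 (standard error). WT replicate 1 lay within the KO range. Lipa, the acid lipase that hydrolyses cholesteryl esters and triglycerides delivered to the lysosome, was at 87.8, 120 and 72.4 TPM in WT and at 96.7, 103 and 69.8 in KO. Its values differed more between libraries of 1 label than between the labels, and the log2 difference was -0.04 ± 0.22 (limma standard error). The other hydrolases and lumenal proteins all overlapped between the labels. Their log2 differences ran from +0.06 for the aspartic protease gene Ctsd to +0.21 for Hexa, a subunit of the enzyme that degrades gangliosides. In between were Ctsa (protective protein), Tpp1 (a peptidase also known as CLN2), Psap (the precursor of saposins), Npc2 and Grn (progranulin). Ctsa, at 54.3, 53.0 and 41.3 TPM in WT and at 57.8, 74.3 and 42.5 in KO, shares 495 exonic bases with the phospholipid transfer protein gene Pltp on the opposite strand. Pltp was at 18.2, 40.2 and 17.0 TPM in WT and at 19.6, 61.8 and 15.0 in KO, so that both genes were highest in KO replicate 2, and the part of Pltp reads in the Ctsa values was not tested.

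Macrophages are rich in lysosomes, so their markers are given beside these genes. The summed level of 14 Kupffer cell and macrophage markers was 466, 424 and 327 TPM in WT and 445, 444 and 427 in KO, which overlap. Of the 13 tested, 12 had a log2 difference above 0, against 74.5% of all tested genes. The median of the 13 was +0.13, and 0 of them had an unadjusted p below 0.05. After median-ratio scaling 9 of the 13 were above 0, with a median of +0.03. The summed level of 8 markers of recruited or lipid-associated macrophages was 51.2, 60.0 and 43.4 TPM in WT and 67.3, 121 and 85.4 in KO, without overlap. All 4 of the tested ones had a log2 difference above 0, with a median of +0.41, or +0.33 after median-ratio scaling, and Spp1 had an unadjusted p below 0.05 (limma, unadjusted p = 0.0347, and 0.0296 after scaling). Most of that sum came from Spp1 and Fabp5, whereas Gpnmb and Itgax stayed below 1 TPM in every library. Spp1 was also on the list of bile duct cell markers. Fabp5 was at 4.58, 19.7 and 13.4 TPM in WT and at 7.31, 58.8 and 39.0 in KO, which overlap. Among the untested markers, mean TPM was 0.109 in WT and 0.342 in KO for Gpnmb and 0.514 and 0.616 for Ccr2. It was 0.204 and 0.2 for Itgax and 0.615 and 0.602 for Mmp12. The summed level of 10 stellate cell and fibroblast markers was 142, 139 and 120 TPM in WT and 144, 166 and 154 in KO. Of the 9 tested, 4 (Acta2, Lum, Col1a2 and Col3a1) had an unadjusted p below 0.05, all higher in KO, against 2.76% of all tested genes, and none of these 4 did after median-ratio scaling (limma, unadjusted p from 0.0741 to 0.0997). The part of these cells in the values of the 32 genes was not tested.

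Libraries with the same replicate number were often high together. In 11 of the 32 genes replicate 1 was the highest library of both labels, in 7 it was replicate 2 and in 0 replicate 3. Among all tested genes these shares were 21.2%, 19.1% and 5.34%. The genes highest in replicate 1 included 5 of the 9 of the autophagy machinery, namely Ulk1, Becn1, Atg5, Gabarapl1 and Sqstm1. Those highest in replicate 2 were Atp6v0d2, Npc1, Npc2, Ctsd, Ctsl, Lipa and Grn. Of 3 adipose markers Adipoq was listed at 0 in all libraries, whereas Cfd (adipsin) was at 23.2 and 22.3 TPM in the number 1 libraries and at most 2.47 in the others; its part in this pattern was not tested. In Lipa the number 2 libraries were at 120 and 103 TPM and the number 3 libraries at 72.4 and 69.8. Grn was likewise at 68.5 and 75.5 TPM in the number 2 libraries and at 40.3 and 51.3 in the number 3 libraries. The median deviation of the 31 tested genes from their own means was lowest in WT replicate 3 (-0.25 on the log2 scale, against -0.16 for all genes tested) and -0.07 there after median-ratio scaling. Without WT replicate 3 the median difference of the 31 genes was +0.03, with 18 above 0, against a median of +0.04 for all genes.

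**Figure D4:**
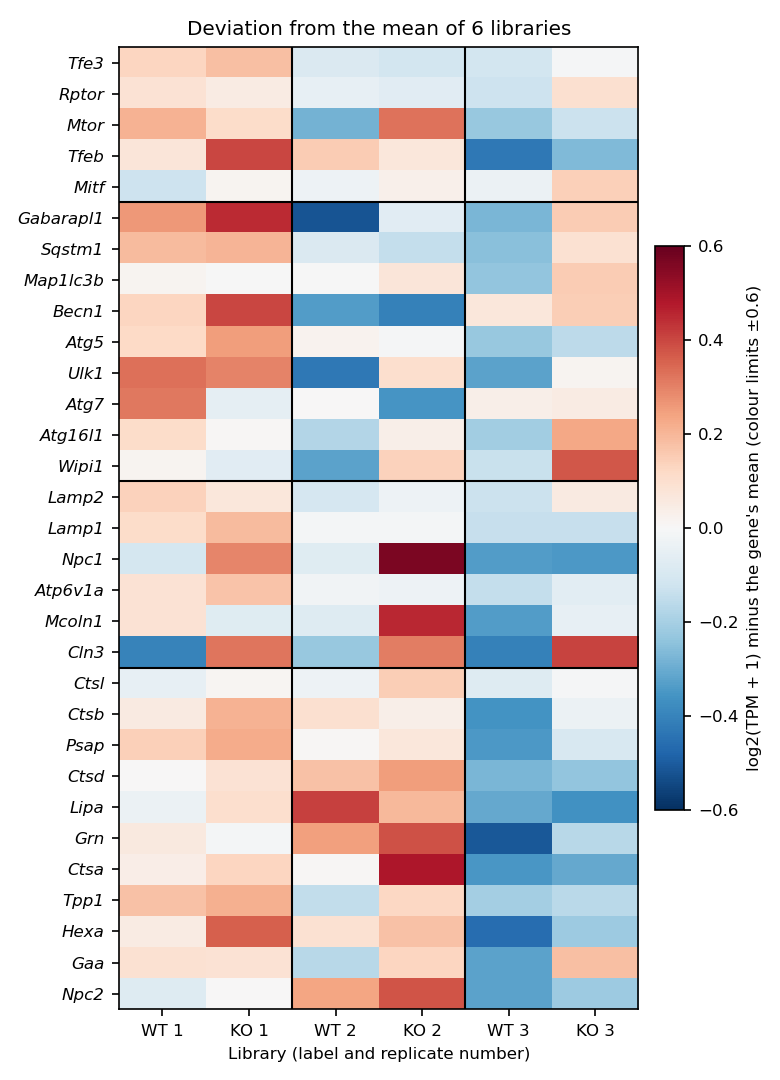
Deviation of each of the 31 tested genes (rows, by role) from its mean over the 6 libraries (columns, with same-numbered libraries side by side), on the log2(TPM + 1) scale. Columns of the same number often share a colour, WT replicate 3 is blue in most rows, and Cln3 is below its mean in all 3 WT columns and above it in all 3 KO columns, as is Mitf by smaller amounts.

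In 10 of the 32 genes the KO library was higher in all 3 same-numbered pairs, against 26.9% of tested genes, and in 1 (Atp6v0d2) it was lower in all 3, against 4.35%. The 10 were Mitf, Gabarapl1, Cln3, Ctsa, Ctsd, Ctsl, Hexa, Tpp1, Npc2 and Psap.

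The wider pathway was described with 183 further genes in 6 lists, of which 176 were tested. None was called, and 3 had an unadjusted limma p below 0.05, all higher in KO, which is fewer than the 2.76% of all tested genes would give. With the replicate block there were 19, all higher, and 0 called, against 5.26% of tested genes higher. After median-ratio scaling there were 2 higher and 1 lower without the block, against 1.31% and 1.25% of all tested genes. The 2 higher were Akt1s1 and Fnip1 (limma, unadjusted p = 0.0181 and 0.045). The lower was the autophagy gene Atg101, with a log2 difference of -0.30 (limma, unadjusted p = 0.0348). With both the block and that scaling there were 4 higher and 2 lower. The share of all tested genes under that fit is not given here. The log2 difference was above 0 for 144 of the 176, and for 89 after median-ratio scaling, when their median was +0.0012.

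Of the 3 genes with an unadjusted p below 0.05 before scaling and without the block, Akt1s1 and Fnip1 act on mTORC1. Akt1s1, which encodes the mTORC1 inhibitor PRAS40, was at 31.6, 29.6 and 25 TPM in WT and at 35.6, 41.0 and 39.7 in KO. The labels did not overlap, and the log2 difference was +0.42 (limma, unadjusted p = 0.0144, adjusted p = 0.993). Fnip1, the partner of folliculin in amino acid signalling to mTORC1, was at 8.0, 7.72 and 6.72 TPM in WT and at 9.19, 10.1 and 10.1 in KO, again without overlap (limma, unadjusted p = 0.0237, adjusted p = 0.993). Rheb, the GTPase that activates mTORC1, had the next smallest p of that list and was at 25.8, 28.2 and 24.4 TPM in WT and at 33.7, 30.5 and 29.0 in KO (limma, unadjusted p = 0.0842). The Rheb groups did not overlap, but after median-ratio scaling they did. Of 37 tested mTORC1 and amino acid sensing genes, 31 were above 0, with a median of +0.09, as for all genes tested.

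The third gene, Hgsnat, an acetyltransferase of the lysosomal membrane that takes part in heparan sulfate breakdown, was at 25.9, 20.1 and 18 TPM in WT and at 27.9, 26.3 and 28.1 in KO (limma, unadjusted p = 0.0481, adjusted p = 0.993). Its groups did not overlap, but after median-ratio scaling they did (limma, unadjusted p = 0.0718). Of 23 tested lysosomal membrane genes, 18 were above 0 with a median of +0.08. Among 37 further lysosomal hydrolases 33 were above 0 with a median of +0.16, and they include the dipeptidyl peptidase gene Ctsc (mean 44.0 TPM in WT and 63.0 in KO). Among 43 further autophagy genes 33 were above 0 with a median of +0.10, with the smallest p for the cargo receptor gene Nbr1 (49.0 and 58.5) and for Wdr45b (23.6 and 33.1). Other V-ATPase subunits had 12 of 15 above 0 and a median of +0.17, with the smallest p for Atp6v1d (23.9 and 29.2), and genes of lysosomal sorting 17 of 21 and +0.09, with the smallest p for Vps39 (4.26 and 5.10). After median-ratio scaling the medians of the 6 lists lay between -0.02 (lysosomal membrane) and +0.06 (V-ATPase).

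Differences between the labels can also be set beside the E-boxes. The 10 genes with an E-box had a median log2 difference of +0.08 and the 17 with a window but no E-box one of +0.13, or -0.03 and +0.03 after median-ratio scaling. Cln3 was the 1 gene among the 10 with an unadjusted p below 0.05. This split was made after the values were seen and was not tested.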

How the data were processed

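The deposited file is 1 table of TPM values, made by the authors, with a column for each of the 6 libraries. The submitters' processing notes name HISAT2, fastp, featureCounts, DESeq2, limma and mm10, without versions or roles, and how reads over shared exons were counted is unknown here. Of 54600 rows, 51492 were matched to a symbol of GENCODE M21, an annotation of the same build, which also gave coordinates and overlaps. BLAST 2.17.0 searched the transcripts for stretches of at least 100 bases at 97% identity in other genes.

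The 11440 genes that reached 1 TPM in 3 or more of the 6 libraries entered limma 3.58.1 (R 4.3.3), fitted to log2(TPM + 1) with a two-sided test and a trended variance, and p-values were adjusted by Benjamini-Hochberg over all of them. That scale understates changes of low genes. The procedure was tested on simulated data, whose outcome is not given here. The simulated noise was drawn separately for each gene and library, so library scaling and pairing by number were not covered. Same-numbered WT and KO libraries deviated together from their group means (correlations 0.16, 0.41 and 0.38), so the numbers were treated as pairs in an alternative fit; this pairing comes from the data, not from the labels. Values per library are given for genes with an unadjusted p below 0.05, for those without overlap and for the 2 most abundant of each role, and from the further lists for genes with the smallest p; Mtor, Mcoln1, Ulk1, Wipi1, Atg7, Npc1, Atp6v0d2, Ctsa, Gaa, Lipa and Grn were added after their values were seen. The genes, lists and tests were chosen with earlier results of these data known. Alternatives were other pseudocounts (0.1, 5), filters, scalings, variance models, library weights, the block, and leaving out libraries. Leaving out both libraries numbered 2 was added after seeing the data.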

Additional observations from a re-analysis of the deposited data

How the results depend on the processing

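Under the 20 alternatives none of the 32 genes was called. Cln3 kept its direction in each, with a log2 difference between 0.47 (pseudocount 5) and 0.77 (pseudocount 0.1), an unadjusted p between 0.000509 and 0.00622 and an adjusted p between 0.6184 and 0.9999. With the replicate block the number of genes with an unadjusted p below 0.05 was 2, and with the block and median-ratio scaling it was 3 (Cln3, Gabarapl1 and, lower in KO, Atg7). It ran from 1 to 4 with 1 library left out: 4 without WT replicate 1 (Cln3, Ulk1, Gabarapl1 and Gaa) and 2 without KO replicate 3 (Cln3 and Npc1). For the block with scaling and for libraries left out, the shares of all tested genes are not given here. The median difference of all genes tested was +0.14 without WT replicate 1 and +0.13 without KO replicate 3, against +0.09 with all libraries. The block changed no call.

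Of the 31 tested genes, 14 kept the direction of their log2 difference in every alternative and 17 turned in at least 1. After median-ratio scaling, with or without the replicate block, the value was -0.08 for Lamp1, -0.05 for Tfe3, Atg5, Lamp2, Atp6v1a and Ctsd, -0.04 for Rptor, -0.02 for Becn1, and -0.01 for Sqstm1 and Ctsl. Quantile normalization gave -0.07 for Tfe3, -0.06 for Rptor, -0.05 for Lamp1, -0.04 for Atg5 and Atp6v1a, and -0.02 for Ctsd. Recomputing TPM after removing mitochondrial genes and the 20 genes of highest TPM gave -0.04 for Lamp1, -0.02 for Tfe3, -0.01 for Atg5, Lamp2 and Atp6v1a, -0.0024 for Rptor and -0.0016 for Ctsd. Without both libraries numbered 2, Lipa was at 0.04 and Mtor at -0.0033. The cause was not tested.

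With 1 library left out, mostly WT replicate 3 or KO replicate 1, 13 genes turned, and their log2 differences ran from -0.04 to 0.30 for Tfeb, from -0.04 to 0.12 for Tfe3, from -0.08 to 0.32 for Becn1, from -0.06 to 0.15 for Atg5, from -0.00077 to 0.22 for Sqstm1, from -0.06 to 0.10 for Lamp1, from -0.02 to 0.11 for Atp6v1a. They ran from -0.0044 to 0.22 for Ctsb, from -0.06 to 0.20 for Ctsd, from -0.21 to 0.15 for Lipa, from -0.05 to 0.25 for Npc2, from -0.01 to 0.23 for Psap, from -0.09 to 0.29 for Grn.

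Median differences moved by more than the spread as follows. The mTORC1 and MiT/TFE genes were at 0.03 under quantile normalization and ran from 0.01 to 0.12 with 1 library left out, the lowest without WT replicate 3. The lysosomal membrane genes were at -0.01 with TPM recomputed. Of the further lists, median-ratio scaling, with or without the block, gave -0.0019 for mTORC1 sensing, -0.01 for autophagy, 0.06 for the V-ATPase and -0.01 for sorting. Quantile normalization gave -0.0045 for mTORC1 sensing, 0.0015 for autophagy, -0.03 for membrane proteins and -0.02 for sorting. With 3 libraries a label and depth unknown, small differences could not be detected.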
